A study of Mus musculus with 12 samples.

Results

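Genes of synaptic vesicle release, 10 in number, were followed across 12 arrays of mouse neural progenitor cells. They were Snap25, Stx1a, Vamp2, Syt1, Syt4, Cplx1, Syp, Sv2a, Syn1 and Rab3a. The genes were taken by name, and 23 probes carried one of the 10 names among 41174 probes on the array. A gene entered the comparisons when its brightest probe was well above background, by the image software's own flag, on at least 1 array. That held for 9 of the 10 genes and for 20957 genes in all, and Syt4 was the gene that did not enter.

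The cells were neural progenitors of the 129/Ola strain. Each factor culture carried a retrovirus with the open reading frame of 1 transcription factor, which was Crebzf, Esx1, Etv6, Gatad2b, Hmga2, Nfxl1, Pax6, Pdx1, Sox11 or Zfp451. The controls were a culture given EGFP, a green fluorescent protein, and a culture labelled mock. In the cultures given a virus about 95% of cells expressed the insert. G418, a drug toxic to cells without the resistance gene of the vector, was given from 24 h and RNA was taken at 72 h. The insert and a resistance gene sit on 1 vector (pMXs-IRESNeo), so the EGFP culture shares the virus and the drug with the factor cultures. The labels do not say whether the mock culture met a virus or G418. The title of the study divides its factors into interfering and non-interfering ones, and the labels do not say which factor is which. Each group was 1 array, so no value has a replicate and no p-value was computed.

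Transmitter release depends on a small set of proteins. The SNARE proteins SNAP-25 and syntaxin-1 on the plasma membrane zip together with VAMP2 (synaptobrevin) on the vesicle, and this pulls the membranes into fusion. Synaptotagmin-1 senses the calcium that triggers fusion, complexin binds the partly assembled SNARE bundle and both holds and primes it, and Rab3A helps bring vesicles to the release site. Synaptophysin and SV2A are membrane proteins of the vesicle, and synapsin I tethers vesicles in the reserve pool. These genes are classical markers of differentiating neurons, in which several of them are released from the repressor REST.

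A level here is the log2 of a probe's processed signal minus the log2 of its array's 75th percentile, so 0 is that percentile and levels of different probes were not set against each other. A difference is a factor array's level minus the mean of the EGFP and mock levels. A gene was called higher, or lower, when it lay at least 2-fold above, or below, both control arrays with the brighter side well above background. Where the dimmer side was not well above background the fold is given as "at least". It is then taken against the measured level or, if that was lower, the lowest signal the array could tell from background. The 75th percentile lay between 823.5 and 1026 signal units, and 62.5% to 69.1% of probes were well above background. Of 16080 genes well above background on all 12 arrays, 42 differed by 2-fold or more between EGFP and mock, and 95% differed by 0.35 or less on the log2 scale. Over these genes the median difference of a factor array lay between -0.13 and 0.03, and the lowest values were those of Esx1 and of the 4 arrays of slide 3.

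The arrays sat on 3 slides of 4. Slide 1 held Pax6, Hmga2, EGFP and mock, slide 2 held Gatad2b, Etv6, Esx1 and Nfxl1, and slide 3 held Crebzf, Pdx1, Sox11 and Zfp451. Pax6 and Hmga2 could therefore be set against the controls within a slide, and Esx1 against 3 other factor arrays. On slide 3 no control was present, and slide and factor cannot be told apart there.

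Snap25, Syt1 and Sv2a were called higher on a common set of arrays, and Cplx1 was called lower on it. Snap25, Syt1 and Cplx1 were called on the Pax6 array, the Esx1 array and the 4 arrays of slide 3 (Crebzf, Pdx1, Sox11 and Zfp451), and Sv2a on all of these except Esx1. The 6 arrays are grouped because Snap25 was called on them, and only their ranges are given. Snap25 was 5.44 to 9.32 times, Syt1 5.24 to 8.42 times and Sv2a 2.64 to 3.13 times its control mean where called. The size over the 6 arrays depended on the background correction. The log2 difference was 2.44 to 3.22 for Snap25, 2.39 to 3.07 for Syt1 and 1.12 to 1.65 for Sv2a as reported. With normexp, a model-based background correction, it was 1.09 to 1.65, 0.84 to 1.24 and 0.70 to 1.16 in the same order. Under normexp 14 higher calls were made in all instead of 17. It was run with an offset of 50 added to every signal, which by itself makes the folds of dim probes smaller. With each gene's probes averaged the log2 difference was 1.56 to 2.21 for Snap25 and 0.87 to 1.33 for Syt1. Cplx1 was 2.40 to 4.28 times lower. None of the 9 measured genes was called on the Hmga2, Gatad2b, Etv6 or Nfxl1 arrays. Summed over the 10 factor arrays there were 17 higher calls and 6 lower calls, and 6 of the 10 genes, Syt4 included, had none. With levels centred within slides, none was called on slide 3, and the 6 higher and 2 lower calls that were left lay on Pax6 and Esx1. In a bulk sample, more cells that express a gene and more RNA per cell cannot be told apart.

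These counts stand beside large overall differences on the same arrays. On the Pax6 array 3 release genes were called higher and 1 lower, where 10.7% of all genes tested were called higher and 6.39% lower. On the Esx1 array 2 were higher and 1 lower, beside 10.3% and 7.42% of all genes. The counts were 3 higher and 1 lower on each array of slide 3. There the shares of all genes were 9.82% higher and 6.27% lower for Crebzf, 9.84% and 6.62% for Pdx1, 9.73% and 6.93% for Sox11, and 9.58% and 6.30% for Zfp451. The 4 arrays without a called release gene had few calls of any kind. All genes were called higher and lower at 0.429% and 0.554% for Hmga2, 0.644% and 1.0% for Gatad2b, 1.05% and 0.835% for Etv6, and 0.301% and 1.17% for Nfxl1. The same 2 controls enter every comparison, so agreement between factor arrays is no independent count. The median difference of the 9 measured release genes was 0.41 to 0.60 on the 6 arrays with calls, against -0.21 to -0.08 over all genes tested. These arrays were picked by calls of the same genes, so a higher median there is partly fixed in advance. The all-gene medians of Pax6 (-0.08) and Sox11 (-0.21) equalled the differences of Syt4, which was not well above background. Over genes well above background on every array, the medians of the 6 arrays were -0.13 to -0.06. The median of the release genes was -0.33 to -0.07 on the other 4 factor arrays, against -0.04 to 0.02 over all genes tested.

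**Figure D1:**
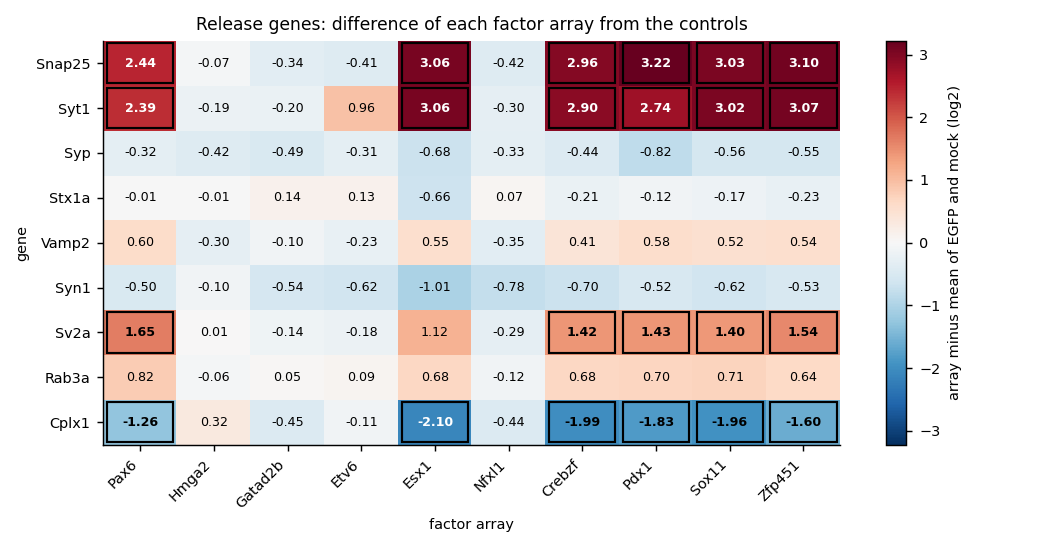
Difference of each factor array from the mean of the EGFP and mock arrays (log2, colour and number) for the 9 release genes that were measured, with the brightest probe of each gene. Framed cells are calls of at least 2-fold against both controls: Snap25 and Syt1 reach 3.22 and 3.07, Cplx1 goes down to -2.10, and no cell is framed on the Hmga2, Gatad2b, Etv6 and Nfxl1 arrays.

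Markers of several cell types moved on the same arrays as Snap25. Of 10 neural progenitor markers, 6 were well above background on all 12 arrays, among them Nes, Sox2, Vim and Msi1, so markers of the labelled cells were present. The summed level of the 10, in multiples of the 75th percentile, was 80.8 to 96.0 on the 6 arrays with high Snap25 and 97.1 to 124 on the other 6. Vim, the brightest of them at levels of 6.19 to 6.48 on the 6 arrays and 6.38 to 6.79 on the other 6, had no call. Of the 10 markers, 3 were called higher and 3 lower on at least 1 array: Nes was lower on 5 (2.11 to 2.85 times over the 6), and Pax6, also the factor of 1 array, was higher on all 6 (2.52 to 3.41 times). The neuronal markers summed to 8.56 to 10.2 on the 6 arrays against 3.69 to 4.06 on the other 6. Of the 14, Stmn2 (at least 6.12 to at least 18.9 times) was among those called higher on all 6. Map2 was called higher on 3 arrays (1.98 to 2.44 times over the 6) and Gap43 on 4. Others did not follow: Tubb3 had no call, Nefl was called lower on 5 arrays, Nefm was well above background on none, and Dcx and Elavl3 were on 1.

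Markers outside the neuronal lineage moved on these arrays too. The 7 fibroblast markers summed to 226 to 243 on the 6 arrays against 94.8 to 106 on the other 6. Postn was 78.8 to 144 times, Col1a1 4.32 to 4.90 times and Dcn 3.99 to 9.31 times higher. Col1a2, the brightest of the 7, was 1.90 to 2.05 times higher without a call. Col3a1 was called higher on 3 arrays, Pdgfrb on 2 and Lum on none. The 6 astrocyte markers summed to 6.13 to 8.77 against 2.98 to 4.06, with S100b called higher on all 6 (2.40 to 3.77 times) and Aldh1l1 on 4, while Gfap and Aqp4 were well above background on 1 array each. Markers of neuroendocrine cells, which also release hormone with this machinery, summed to 0.069 to 0.078 against 0.058 to 0.079, and Scg2 was well above background on none. Pecam1, Cdh5 and Tie1, which define endothelial cells, were well above background on no array. Oligodendrocyte markers summed to 3.74 to 4.73 against 2.97 to 3.84, and Pdgfra among them was called higher on all 6 (3.27 to 5.13 times) and on Etv6. Markers of microglia and macrophages summed to 0.063 to 0.102 against 0.046 to 0.153, and Aif1 was called higher on all 6 (at least 2.71 to at least 3.29 times). Pluripotency markers summed to 0.525 to 0.644 against 0.337 to 0.374, with no call. The part of any cell type in the values of the release genes was not tested.

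The SNARE genes did not move together. Snap25, the plasma membrane SNARE with the widest range of the 10 genes, had levels of -2.85 on Pax6, -5.36 on Hmga2, -5.64 on Gatad2b, -5.70 on Etv6, -2.23 on Esx1, -5.72 on Nfxl1, -2.33 on Crebzf, -2.07 on Pdx1, -2.27 on Sox11 and -2.20 on Zfp451, against -5.44 on EGFP and -5.15 on mock. The arrays fell into a high set of 6 and a low set of 6 with nothing between -5.15 and -2.85, and both controls lay in the low set. In signal units that is 137.2 to 224.8 on the 6 high arrays and 16.5 to 25.0 on the other 6. The error that the image software attached to the high levels was 0.14 to 0.15 on the log2 scale. Within the high set the 4 arrays of slide 3 spanned only -2.33 to -2.07, and Pax6 was the lowest.

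The brightest Snap25 probe lies at chr2:136522959-136523022 on the plus strand of mm7, the build to which the files' probe positions refer. No gene annotation of that build was used here, so exons and UTRs are not assigned to any probe. A second Snap25 probe, for which the files give no position, was 4.95 to 8.32 times its control mean on the same 6 arrays and was called on each of them. Another, at chr2:136514748-136514796, was well above background on 1 array and had no call. Snap25 stood apart from the controls within slide 1, where Pax6 exceeded their mean by 2.44 on the log2 scale and the difference of Hmga2 was -0.07. Within slide 2, Esx1 exceeded the mean of Gatad2b, Etv6 and Nfxl1 by 3.45.

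Stx1a, which encodes the neuronal syntaxin that pairs with SNAP-25, had no call. Its levels were -2.10 on Pax6, -2.10 on Hmga2, -1.96 on Gatad2b, -1.96 on Etv6, -2.75 on Esx1, -2.02 on Nfxl1, -2.30 on Crebzf, -2.21 on Pdx1, -2.26 on Sox11 and -2.32 on Zfp451, against -2.14 on EGFP and -2.04 on mock. Esx1 was the lowest, at a difference of -0.66, and the other 9 factor arrays lay within -0.23 and 0.14 of the control mean. The probe lies at chr5:134021887-134021946 on the plus strand.

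Vamp2, the vesicle SNARE, had no call. Its level was 0.24 on Pax6, -0.65 on Hmga2, -0.46 on Gatad2b, -0.59 on Etv6, 0.20 on Esx1, -0.70 on Nfxl1, 0.06 on Crebzf, 0.22 on Pdx1, 0.17 on Sox11 and 0.18 on Zfp451, against -0.45 on EGFP and -0.26 on mock. The 6 arrays with high Snap25 lay 1.33 to 1.51 times above the control mean. The other 2 probes, which overlap each other near chr11:69171564-69172245, differed from the controls by 0.19 to 0.47 and by 0.13 to 0.26 on those 6 arrays, also without a call.

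**Figure D2:**
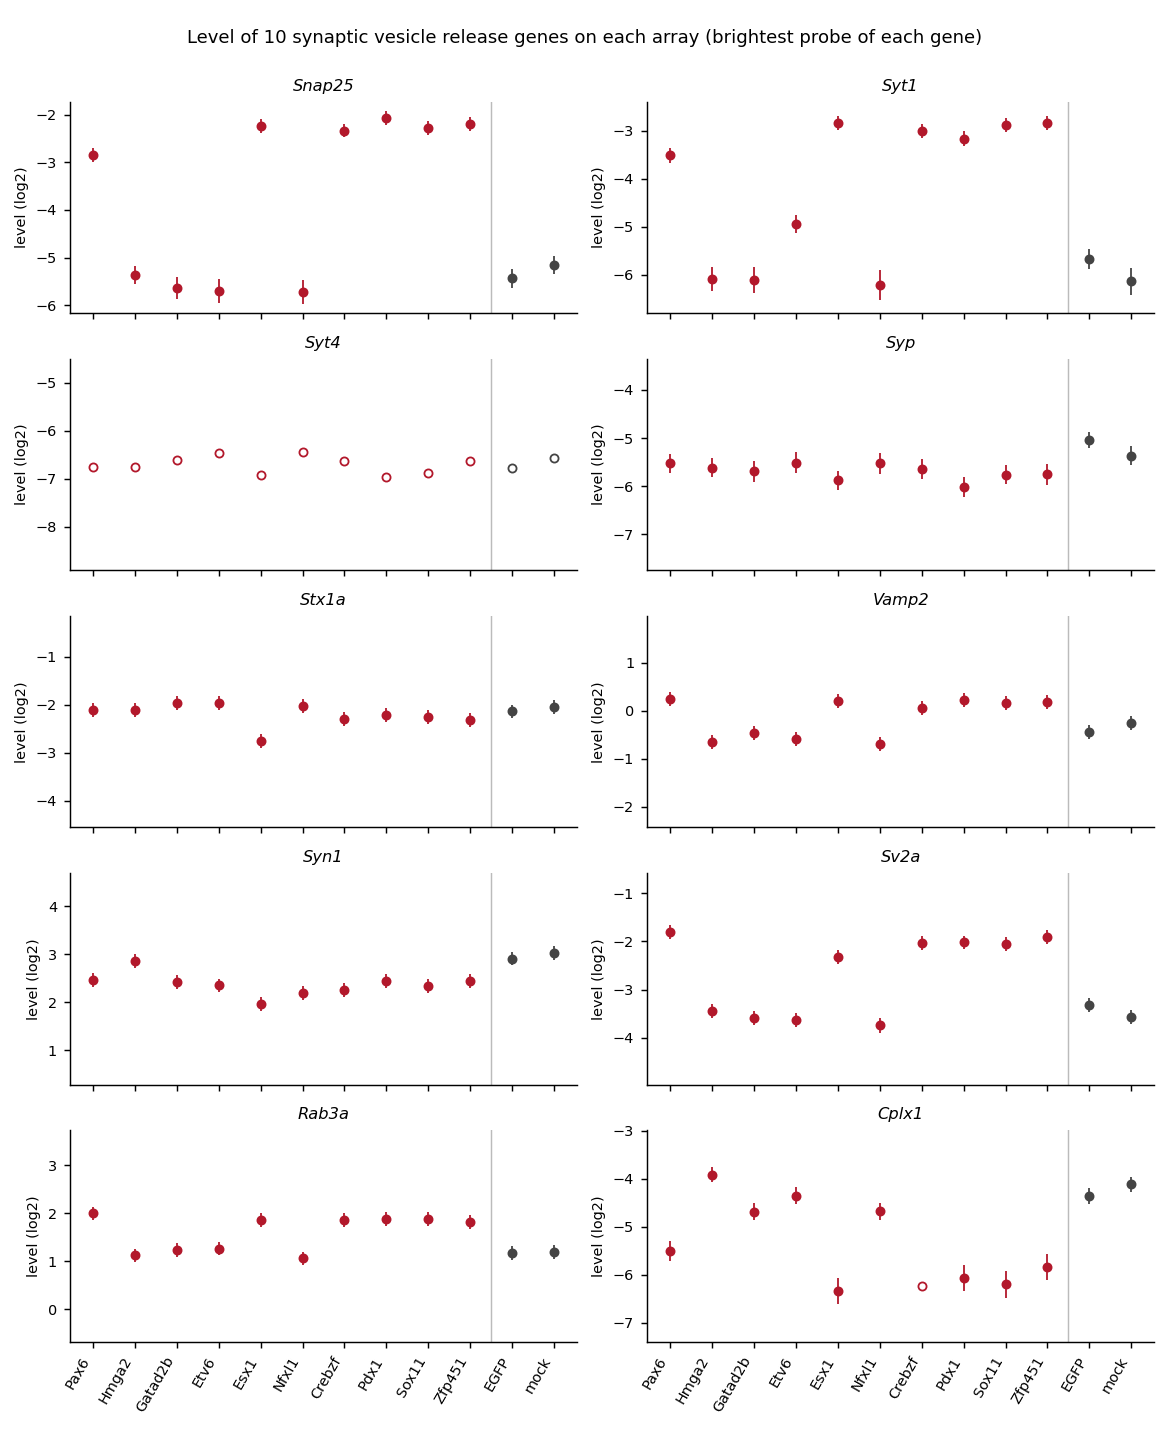
Level of the brightest probe of each of the 10 genes (log2, relative to the array's 75th percentile) on the 10 factor arrays (red) and, right of the grey line, the EGFP and mock arrays (dark grey). Bars are the image software's error for that spot, open points are not well above background and have no bar, and the y axes differ in position between panels; Snap25, Syt1 and Sv2a are high and Cplx1 low on Pax6, on Esx1 and on the 4 arrays of slide 3.

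The calcium sensors differed in whether they could be measured at all. Syt1, the fast calcium sensor of the vesicle, had levels of -3.51 on Pax6, -6.09 on Hmga2, -6.11 on Gatad2b, -4.95 on Etv6, -2.84 on Esx1, -6.20 on Nfxl1, -3.00 on Crebzf, -3.16 on Pdx1, -2.88 on Sox11 and -2.83 on Zfp451, against -5.67 on EGFP and -6.13 on mock. The 6 high arrays were those on which Snap25 was high, and Pax6 was again the lowest of them. Etv6 was the highest of the remaining arrays, 0.96 above the control mean, which is under the 2-fold rule. EGFP lay 0.46 above mock, the widest gap between the controls for the brightest probe of any of the 10 genes.

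The 5 Syt1 probes disagreed in size. The brightest, at chr10:107960316-107960375 on the minus strand, overlaps the second, at chr10:107960365-107960424, by a few bases. The second probe was well above background on EGFP but not on mock, and was at least 3.37 to at least 4.76 times higher on the 6 arrays, with a call on each. The next, at chr10:108103986-108104045, was called on Esx1 and Zfp451 only, at least 2.61 and at least 2.34 times higher. The last pair was well above background on no array. Within slide 1 the brightest probe gave a difference of 2.39 for Pax6, and within slide 2 Esx1 exceeded the mean of its 3 neighbours by 2.91.

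Syt4, a synaptotagmin found on dense core and other vesicles whose first C2 domain lacks a calcium-binding residue, could not be followed. Its 2 probes lie on mouse chromosome 18, and neither was well above background on any of the 12 arrays. A level under -6.96 to -6.45, the arrays' lower limits, could not be told from background.

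The SNARE clamp Cplx1 went the other way. Its levels were -5.50 on Pax6, -3.92 on Hmga2, -4.68 on Gatad2b, -4.35 on Etv6, -6.33 on Esx1, -4.68 on Nfxl1, -6.23 on Crebzf, -6.07 on Pdx1, -6.20 on Sox11 and -5.84 on Zfp451, against -4.36 on EGFP and -4.11 on mock. The 6 arrays on which Cplx1 was called lower were the 6 on which Snap25 was high. The probe is dim: its signal was 12.7 to 21.9 units on the 6 arrays against 46.0 on EGFP and 51.2 on mock, and on Crebzf it was not well above background, so that fold is at least 3.98. With normexp all 6 lower calls were lost, at differences of -0.71 to -0.48. The offset of 50 added there is about the size of the control signals, so a 2-fold lower call could hardly be reached. Cplx1 has 1 probe, at chr5:107699806-107699865 on the minus strand, so no second probe could be set beside it. Within slide 2, the difference of Esx1 from the mean of its 3 neighbours was -1.76.

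Of the vesicle membrane proteins, Sv2a was called higher and Syp had no call. Sv2a, the vesicle glycoprotein that binds the drug levetiracetam, had levels of -1.80 on Pax6, -3.45 on Hmga2, -3.59 on Gatad2b, -3.64 on Etv6, -2.33 on Esx1, -3.74 on Nfxl1, -2.03 on Crebzf, -2.02 on Pdx1, -2.05 on Sox11 and -1.91 on Zfp451, against -3.33 on EGFP and -3.58 on mock. Here Pax6 was the highest array and Esx1 the lowest of the high set. Esx1 was 2.18 times the control mean but just under 2-fold above EGFP, and so was not called. Another Sv2a probe, at chr3:96068016-96068075, was called on the same 5 arrays at 2.24 to 2.91 times and stood 1.72 times above the controls on Esx1. The brightest probe lies at chr3:96068526-96068585 on the plus strand.

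Syp, which encodes synaptophysin, one of the major membrane proteins of the vesicle, was dim and lower than the controls on every factor array, without a call. Its levels were -5.53 on Pax6, -5.62 on Hmga2, -5.69 on Gatad2b, -5.51 on Etv6, -5.88 on Esx1, -5.53 on Nfxl1, -5.64 on Crebzf, -6.02 on Pdx1, -5.76 on Sox11 and -5.76 on Zfp451, against -5.04 on EGFP and -5.36 on mock. The differences ran between -0.82 and -0.31 (that of Nfxl1 was 0.02 after quantile normalization), the gap between EGFP and mock was 0.32, and the software's error for these levels was 0.19 to 0.22. The 6 arrays with high Snap25 overlapped the other 6. The probe lies at chrX:6085999-6086058 on the plus strand.

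Syn1, which encodes the synapsin that holds vesicles in the reserve pool, had no call, and its probes disagreed. The brightest had levels of 2.47 on Pax6, 2.87 on Hmga2, 2.43 on Gatad2b, 2.35 on Etv6, 1.96 on Esx1, 2.19 on Nfxl1, 2.27 on Crebzf, 2.45 on Pdx1, 2.35 on Sox11 and 2.44 on Zfp451, against 2.91 on EGFP and 3.02 on mock. All 10 factor arrays lay below both controls, with differences between -1.01 on Esx1 and -0.10 on Hmga2. The second probe, which the files tie to the same transcript, differed from the controls by only -0.13 to 0.26. The brightest lies at chrX:19353787-19353846 and the second at chrX:19293917-19293976, both on the minus strand. Of the other Syn1 probes, one at chrX:19378174-19378233 is on the opposite strand and was well above background on 1 array, and one at chrX:19315549-19315608 on none.

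Rab3a, the small GTPase that cycles on and off synaptic vesicles, had no call. Its levels were 1.99 on Pax6, 1.12 on Hmga2, 1.22 on Gatad2b, 1.26 on Etv6, 1.85 on Esx1, 1.06 on Nfxl1, 1.85 on Crebzf, 1.87 on Pdx1, 1.88 on Sox11 and 1.82 on Zfp451, against 1.17 on EGFP and 1.19 on mock. The 6 arrays with high Snap25 stood 1.56 to 1.76 times above the control mean, the remaining factor arrays lay within -0.12 and 0.09 of it, and EGFP and mock differed by 0.02. The probe is at chr8:69212532-69212591 on the plus strand.

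**Figure D3:**
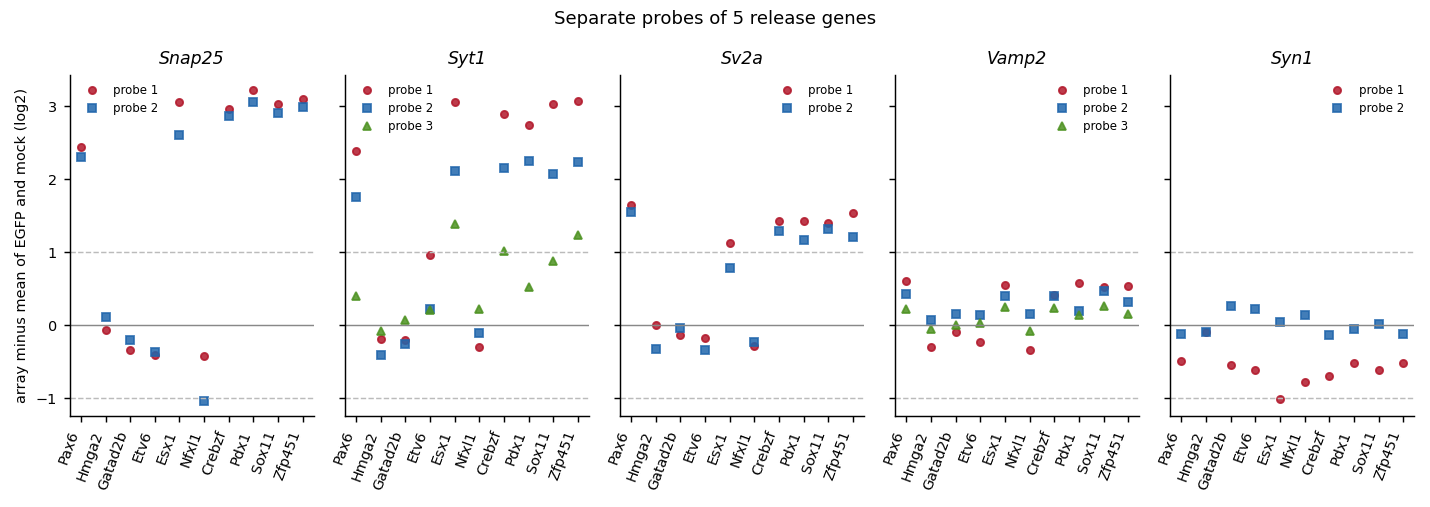
Difference of each factor array from the mean of EGFP and mock (log2) for the separate probes of 5 genes, leaving out probes that were well above background on fewer than 2 arrays; probe 1 is the brightest and dashed lines mark 2-fold. The 2 Snap25 and the 2 Sv2a probes give similar differences, the Syt1 probes give differences of unequal size, and the 2 Syn1 probes part, with probe 1 at -1.01 to -0.10 and probe 2 at -0.13 to 0.26.

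Likeness between genes was measured as the root mean square difference of their levels over the 12 arrays, each centred on its own mean, so that it is a description of 12 arrays with shared slides. Among the members well above background on all 12 arrays, Vamp2 and Rab3a were the closest pair at 0.10. Snap25 and Syt1 differed by 0.44, and Sv2a lay nearer to Rab3a (0.43) and Vamp2 (0.45) than to Syt1 (0.76) or Snap25 (0.87). Levels were not scaled, so genes with unlike ranges differ by this measure even where the same arrays are high. The ranges were 3.64 for Snap25, 3.37 for Syt1, 1.94 for Sv2a and 0.94 for Vamp2 and for Rab3a. Among 16072 other genes, the nearest to Snap25 were Shfl (0.11), Lrrc75b (0.11) and Efs (0.14). The nearest to Syt1 were Itih5 (0.16), Selenbp1 (0.19) and Slc16a11 (0.19), and the nearest to Sv2a were Zfp467 (0.089), Cacnb1 (0.091) and the transcript AK052909 (0.096).

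Promoter windows are shown for the called genes Syt1, Sv2a and Cplx1, and for Syn1, whose window alone matched the REST arm and the response element named here. They run 250 bases before to 50 bases after the transcript start in RefSeq (GRCm38.p6), 5′ to 3′ on the gene's strand. RefSeq windows were matched for 7 of the 10 genes, with 9 windows in all. Capitals mark the left arm of the REST site (TTCAGCACC), the cyclic AMP response element (TGACGTCA) and the GC box (GGGCGG), on either strand. The Syt1 window is chr10:109010926-109011225 (minus strand), the Sv2a window chr3:96180977-96181276 (plus), the Cplx1 window chr5:108549978-108550277 (minus) and the Syn1 window chrX:20920869-20921168 (minus).
Syt1: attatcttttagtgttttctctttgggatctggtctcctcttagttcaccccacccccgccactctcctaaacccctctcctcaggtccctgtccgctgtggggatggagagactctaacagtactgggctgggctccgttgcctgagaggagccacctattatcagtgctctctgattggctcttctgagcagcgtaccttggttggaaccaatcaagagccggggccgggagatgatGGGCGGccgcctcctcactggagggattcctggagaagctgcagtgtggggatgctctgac
Sv2a: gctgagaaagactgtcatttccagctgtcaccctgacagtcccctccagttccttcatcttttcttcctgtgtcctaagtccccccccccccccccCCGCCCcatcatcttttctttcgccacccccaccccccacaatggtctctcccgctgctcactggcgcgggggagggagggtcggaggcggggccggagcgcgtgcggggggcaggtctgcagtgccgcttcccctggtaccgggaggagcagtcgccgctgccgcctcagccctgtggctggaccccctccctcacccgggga
Cplx1: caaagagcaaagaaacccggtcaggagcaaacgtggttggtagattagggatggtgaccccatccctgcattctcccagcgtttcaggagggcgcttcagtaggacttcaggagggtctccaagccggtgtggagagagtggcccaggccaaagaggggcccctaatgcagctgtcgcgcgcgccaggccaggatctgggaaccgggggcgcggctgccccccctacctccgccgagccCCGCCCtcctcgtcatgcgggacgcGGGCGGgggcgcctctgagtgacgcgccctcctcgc
Syn1: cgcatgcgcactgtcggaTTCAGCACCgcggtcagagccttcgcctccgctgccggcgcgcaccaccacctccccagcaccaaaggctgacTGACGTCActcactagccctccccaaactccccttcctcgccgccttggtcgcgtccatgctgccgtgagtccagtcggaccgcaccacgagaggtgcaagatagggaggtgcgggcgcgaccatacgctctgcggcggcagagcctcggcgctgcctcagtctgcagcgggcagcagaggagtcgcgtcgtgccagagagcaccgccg

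The Syn1 window, of a gene that was not called, held both the left REST arm at bases -232 to -224 and the response element at -159 to -152, counted from the transcript start. The left arm occurs in 0.371% of 32851 windows and the response element in 1.79%. The GC box occurs in 35.7% of windows and in at least 1 window of 6 of the 7 genes, among them Syt1, Sv2a and Cplx1. Whether any of these motifs bears on the levels was not tested. The right REST arm (GGACAG, 22.2% of windows) was matched in the Syt1 window only, outside the capitals. Both arms together, 2 bases apart (0.0122%), and the TATA box (TATAAA, 13.6%) were matched in none of the 9 windows. Only exact letters counted as a match. In the Syn1 window the bases at that spacing after the left arm read GGTCAG, which differs from the right arm by 1 letter. Rest, which encodes the repressor itself, had no call, with differences of -0.16 to 0.46 over the factor arrays, the largest on Esx1.

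A wider list of 88 other genes of the release pathway was set beside the 10. Of these, 76 were measured, 15 were called higher on at least 1 factor array, 6 were called lower and 67 had no call or were not measured. There were 50 higher and 15 lower calls in all. The share called higher was close to that of all genes on most arrays: 11.8% on Pax6, 7.89% on Esx1, 9.21% on Crebzf, 11.8% on Pdx1, 9.21% on Sox11 and 10.5% on Zfp451, beside the 10.7%, 10.3%, 9.82%, 9.84%, 9.73% and 9.58% of all genes. The share called lower was 0% on Esx1 and 1.32% to 5.26% on the other 5 of these arrays, in each case under that of all genes. The list's median difference lay between -0.04 and 0.07 on the 10 arrays.

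**Figure D4:**
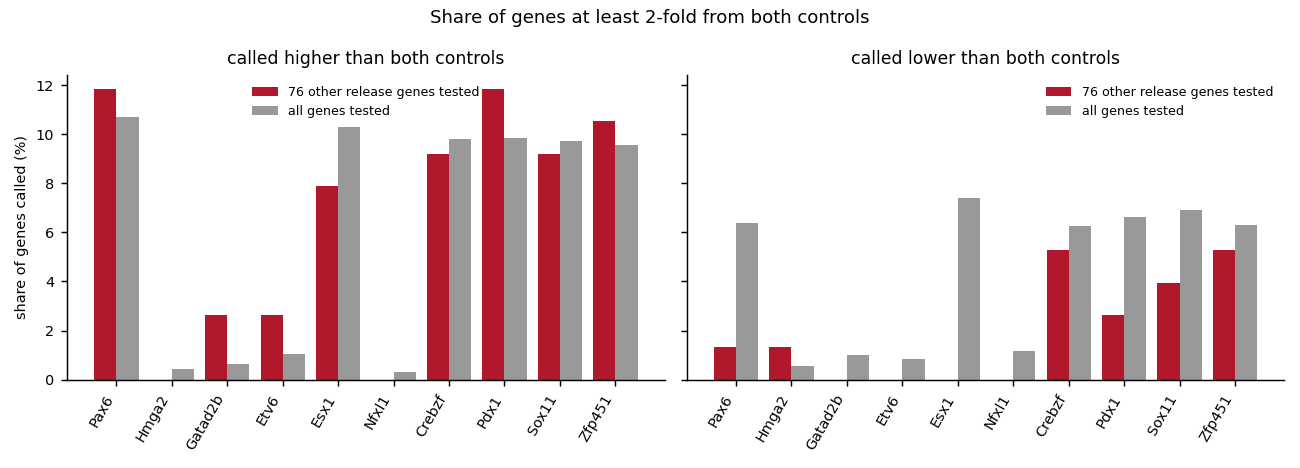
Share of the 76 other release genes tested (red) and of all 20957 genes tested (grey) that were at least 2-fold above (left panel) or below (right panel) both controls, in percent, by factor array. The red and grey bars for higher calls are of similar height on the 6 arrays with many calls, and the red bars for lower calls are the shorter ones there.

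Among the paralogs of the SNARE genes, the widely expressed relatives Snap23, Snap29, Snap47, Stx3, Stx4a, Vamp3, Vamp7 and Vamp8 had no call. Among SNARE regulators and priming factors, Unc13c (Munc13-3, a priming factor) was 4.60 to 6.99 times and Stxbp2 (Munc18-2, a syntaxin partner outside neurons) 2.79 to 3.45 times higher on all of the 6 arrays with high Snap25. Stxbp3a, a further Munc18 gene, was 2.58 times higher on Pax6. Unc13a and Unc13b had no call, although a second Unc13a probe stood 1.03 to 2.06 above the controls on the 6 arrays on the log2 scale. Nsf, the ATPase that takes SNARE bundles apart, was 2.11 times lower on Pdx1 and is named after its value was seen, to complete the lower calls.

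Among calcium sensors Syt6 was 6.44 to 10.1 times higher on the 6 arrays, with levels of 1.31 on Pax6, 0.66 on Esx1, 0.78 on Crebzf, 1.14 on Pdx1, 1.10 on Sox11 and 0.98 on Zfp451, against -2.13 on EGFP and -1.93 on mock. Syt13, an atypical synaptotagmin that does not bind calcium, was 2.17 to 2.32 times lower on the 4 arrays of slide 3, and a second probe had differences of -1.62 to -0.94 on the 6 arrays with high Snap25. Syt2, Syt5 and Syt9 were not well above background on any array.

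Vesicle proteins and transporters gave few calls. Syn2, a second synapsin, was at least 2.56 times lower on Pax6 and on Hmga2, both on the controls' slide. The vesicular glutamate transporter Slc17a8 was 2.18 times lower on Crebzf and 2.24 times lower on Zfp451, and the vesicular monoamine transporter Slc18a2 was 2.12 to 2.23 times lower on Crebzf, Sox11 and Zfp451. A second Slc18a2 probe had differences of -0.89 to 0.21 on the 6 arrays. The vesicular acetylcholine transporter Slc18a3 was 10.1 times higher on Etv6, at a level of -2.83 against -6.11 on EGFP and -6.24 on mock, and had no call on the other 9 factor arrays.

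In the Rab3 cycle and active zone group, Rab3d, a Rab3 of secretory cells, was 2.68 to 3.03 times higher on the 6 arrays. A second Rab3d probe had differences of 0.75 to 1.51 on the 6 arrays and 0.76 on Hmga2. Erc2, an active zone scaffold, was 2.11 to 2.56 times higher on 5 of the 6 arrays and Ppfia3, a liprin of the active zone, 2.10 to 2.86 times higher on 5. Ppfia2, another liprin, was called lower on Crebzf, Sox11 and Zfp451, by 2.76 to 3.43 times with 2 of these folds being lower bounds. On Pax6 it went the other way, at a difference of 1.01 without a call. Rab27a, which acts beside Rab3 in secretion, was 2.16 times higher on Pdx1 and 2.32 times higher on Zfp451. Rab3c was at least 2.85 times higher on Pax6 and at least 2.16 times higher on Gatad2b. Of the recycling genes, Snap91, the clathrin assembly protein AP180, was 5.94 to 9.16 times higher on the 6 arrays. Amph (amphiphysin) was 2.77 times higher on Etv6. A second Amph probe, well above background on 2 arrays, had differences of 0.27 on Etv6, 1.37 on Pax6 and 3.18 on Sox11. Sh3gl2 (endophilin A1), well above background on 1 array, was at least 5.59 times higher on Gatad2b. Of the dense core vesicle genes Pcsk2, a prohormone convertase, was 2.45 times higher on Pax6, and Chga, Chgb, Scg3, Scg5 and Cpe had no call.

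**Figure D5:**
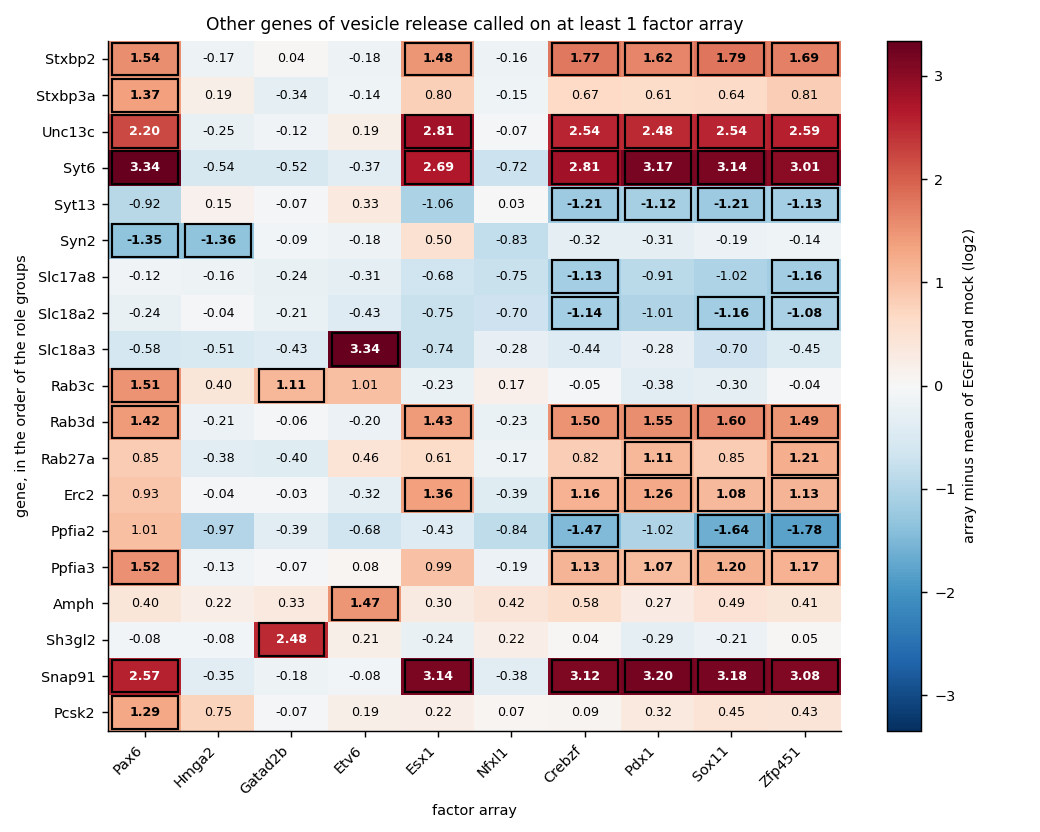
Difference of each factor array from the mean of EGFP and mock (log2, colour and number) for 19 other release genes named by the rule, in the order of their roles from SNARE regulators (top) to dense core vesicle genes (bottom); framed cells are calls. Syt6, Snap91, Unc13c, Stxbp2 and Rab3d are framed on Pax6, on Esx1 and on all slide 3 arrays, Syt13 is framed as lower on the slide 3 arrays, and Slc18a3 is framed on Etv6 alone.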

How the data were processed

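RNA from 12 cultures was hybridised to one-colour (Cy3) Agilent arrays, labelled from 0.25 µg. Per the file headers, the deposited values are background-subtracted intensities from Agilent Feature Extraction 10.7.3.1. The deposited files also carry the image software's flags, which have no unit, for outlier and well-above-background spots, and its error of each signal as an intensity. The deposited value table equals the processed signal. No later step by the authors is given in the sources used here. The files' probe positions refer to mm7, and RefSeq names and promoters to GRCm38.p6.

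From these, outlier spots were left out, repeats averaged (43379 spots, 41174 probes), log2 taken relative to the 75th percentile, and values raised to each array's lowest well-above-background signal (-6.96 to -6.45). No spot was saturated. Probes were named by accession (23082), symbol (6582), synonym (3073) or the file's name (8437), and each gene is represented by its brightest probe. Of 20957 genes, 16080 were well above background on all 12 arrays. With 1 array per group there is no test. Alternatives changed the normalization, background correction (limma 3.58.1 in R 4.3.3, normexp, offset 50), floor, probe, filter, fold, control, slide and outlier spots. Other steps used Python 3.11.15. The calling step was tested on simulated data. The number of arrays limits the precision.

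Named genes are the 10 members with all probes, up to 20 genes of the wider list ordered by arrays called and then by size of difference, Rest, the 3 nearest genes for each of the 3 members with the widest range, and cell type markers. The members and lists were chosen with earlier results of these data known. A few genes that these rules name are not reported here.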

Additional observations from a re-analysis of the deposited data

How the results depend on the processing

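No paired analysis was possible because each group held 1 array. Over 12 alternatives, 1017 of 1070 values of 1 gene on 1 array kept their call or lack of one. A call was lost by 33 and gained by 19, and 1 called value changed sign. Of these, 13 gains came at 1.5-fold and 7 losses at 3-fold, where the cutoff changed and the values did not. Values that were not called changed sign 35 times, none of them larger than 0.615 as reported. Centring levels within slides, which removes what the arrays of a slide share and sets slide 1 on a mean that holds Pax6, left 6 higher calls of 17 and 2 lower calls of 6. It left 0 called on Crebzf, 0 on Pdx1, 0 on Sox11 and 0 on Zfp451, turned Cplx1 on Zfp451 to 0.0096, and gave 21 higher and 6 lower calls in the wider list (50 and 15 as reported). Normexp background correction, whose offset of 50 makes the folds of dim probes smaller, gave 0 lower calls. It left 2 called on Crebzf, 2 on Pax6 and 2 on Sox11, and gave 4 lower calls in the wider list. Requiring well-above-background signal on every array drops Cplx1 and so gave 0 lower calls. At 1.5-fold there were 11 lower calls, 7 genes called on Esx1, 1 on Etv6 and 1 on Nfxl1, and 99 higher and 75 lower calls in the wider list. At 3-fold there were 2 called on Pax6 and 2 on Zfp451, and 24 higher and 1 lower in the wider list. Against mock alone there were 5 called on Esx1 and 1 on Etv6, and quantile normalization also gave 1 on Etv6, which was Syt1. For lower calls of the wider list, no floor gave 23, the mean of all probes 9, EGFP alone 26, mock alone 23 and subtracting each array's median shift, chosen after seeing the data, 5. Cplx1, Syp and, on the controls, Syt1 have dim probes, which limits their values.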
